A study of Mus musculus with 18 samples.

Results

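Immediate-early and NF-κB feedback genes were followed in fasted mouse liver: Fos, Jun, Junb, Egr1, Ier2, Ier3, Dusp1, Zfp36, Nfkbia and Tnfaip3. These 10 genes were taken by name from the 54532 genes listed. The study asked how vitamin B2 (riboflavin) deficiency changes the liver of fasted mice, with and without fenofibrate (FF), a drug that activates the nuclear receptor PPARα. All animals were male wild-type C57BL/6J mice, placed on their diets at about 1 month of age, and each gave 1 liver RNA-seq library. In the experiment without fenofibrate, 5 mice ate the control diet (Ctrl) and 5 ate the vitamin B2-deficient diet (B2D) for 1 month. In the experiment with fenofibrate, 4 mice (Ctrl+FF) and 4 mice (B2D+FF) ate the same diets for 9 weeks and were gavaged with fenofibrate from week 7 to week 9. Every mouse was fasted overnight, and the fenofibrate mice received a last dose 2 hours before harvest. The gavage was thus a handling shortly before harvest that Ctrl and B2D mice are not described as having had. Mice are numbered within each group, from Ctrl 1 to B2D+FF 4.

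Immediate-early genes are transcribed within minutes of a signal, without new protein synthesis, and their mRNAs are short-lived. Growth factors, stress and handling of the animal switch on Fos, Jun, Junb and Egr1 through MAP kinases, the serum response factor and CREB, while Dusp1 and Zfp36 then shut the kinases and the mRNAs down. Cytokines and bacterial products activate NF-κB, a transcription factor that also switches on its own inhibitors, among them Nfkbia (IκBα) and Tnfaip3 (A20), and in liver both arms are known from regeneration, inflammation and tissue dissection.

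The windows upstream of the transcription start are shown because these genes are known for binding sites close to it. RefSeq promoters (build GRCm38.p6) were matched for 8 of the 10 genes, not for Egr1 and Ier2. The last 150 bases before each start were searched on both strands, and bases that GENCODE places in an exon of the same gene are not printed, other than 30 bases around the CArG box of Zfp36. Capitals mark matches to TGACG (the core of a CREB site), TGACGTCA (the full CREB site, which holds TGACG), TGACATCA (the variant bound by Jun and ATF proteins), TGANTCA (the AP-1 site of Fos and Jun dimers), the CArG box (the serum response factor site) or the NF-κB motif. Each line reads 5′ to 3′ on the gene's strand.
Fos, chr12:85473740-85473889, plus strand: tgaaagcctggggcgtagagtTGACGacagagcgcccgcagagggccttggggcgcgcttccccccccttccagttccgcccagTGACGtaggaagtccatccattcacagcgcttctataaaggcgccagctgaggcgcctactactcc
Jun, chr4:95052223-95052372, minus strand: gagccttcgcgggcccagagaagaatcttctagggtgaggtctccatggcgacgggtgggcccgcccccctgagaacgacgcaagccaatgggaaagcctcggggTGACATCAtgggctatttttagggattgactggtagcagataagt
Junb, chr8:84978749-84978898, minus strand: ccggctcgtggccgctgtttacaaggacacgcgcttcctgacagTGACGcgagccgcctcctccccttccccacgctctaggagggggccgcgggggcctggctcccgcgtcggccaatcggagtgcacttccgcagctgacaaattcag
Dusp1, chr17:26508520-26508622, minus strand: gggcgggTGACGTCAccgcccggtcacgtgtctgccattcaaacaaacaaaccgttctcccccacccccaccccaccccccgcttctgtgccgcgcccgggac
Zfp36, chr7:28379267-28379296, minus strand: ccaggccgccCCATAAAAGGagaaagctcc
Ier3, chr17:35821563-35821683, plus strand: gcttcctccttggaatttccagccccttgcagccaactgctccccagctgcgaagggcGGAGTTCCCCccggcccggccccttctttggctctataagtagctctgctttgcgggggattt
Nfkbia, chr12:55492648-55492797, minus strand: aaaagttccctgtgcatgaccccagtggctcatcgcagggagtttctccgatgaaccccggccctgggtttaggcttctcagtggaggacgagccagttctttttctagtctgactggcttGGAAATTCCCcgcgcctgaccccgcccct
Tnfaip3, chr10:19015411-19015547, minus strand: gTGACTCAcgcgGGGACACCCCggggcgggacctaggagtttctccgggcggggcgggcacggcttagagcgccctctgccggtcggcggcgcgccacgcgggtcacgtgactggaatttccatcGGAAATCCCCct

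TGACG lay in the windows of Fos, with copies from 129 and from 66 bases before the start, Junb and Dusp1, against 13.3% of all 32851 RefSeq windows of this length. The full TGACGTCA was found in Dusp1 alone among the 8 genes (1.36% of all windows) and TGACATCA in Jun alone (2.32%). The CArG box was found in Zfp36 alone, from 58 bases before the start (0.916% of all windows). That window also held GCGNGGGCG, the site of Egr1 (3.81%), and it lay whole within an annotated exon of a longer Zfp36 transcript, so only 30 bases are printed. The NF-κB motif was found in Nfkbia, Ier3 and Tnfaip3, which has 2 copies, against 4.6% of all windows. Tnfaip3 also held TGANTCA (4.24% of all windows), and its other annotated start had none of these motifs. These matches describe letters in a short window and say nothing of whether a factor was bound.

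The authors deposited FPKM values (fragments per kilobase of transcript length, after scaling of each library), so levels can be set side by side between genes. Between 15320729 and 21898502 reads were counted on genes per library. The 2 experiments were normalized separately, and fenofibrate, time on the diet and experiment change together, so levels were tested only within an experiment. As a check of the labelled tissue, 7 hepatocyte markers, such as albumin, summed to between 28020 and 54660 FPKM in every library. In bulk liver, fewer cells of a type and less RNA per cell cannot be told apart.

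In Ctrl livers, Nfkbia and Zfp36 were the most abundant of the 10 genes, with median FPKM of 21.1 and 17.7. Junb (10.4), Ier2 (9.11), Dusp1 (4.75) and Jun (4.46) followed, and neighbours in this order overlapped in range. Egr1 (1.92) lay apart from the genes above and below it. Ier3 (0.696), Tnfaip3 (0.425) and Fos (0.257) were lowest and overlapped. Fos stood on 9 to 23 reads per Ctrl library and ranked at the median in the 1.49th percentile of genes tested. Nfkbia and Zfp36 led in the other groups as well, though Nfkbia and Zfp36 overlapped in Ctrl, B2D and B2D+FF and not in Ctrl+FF.

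**Figure D1:**
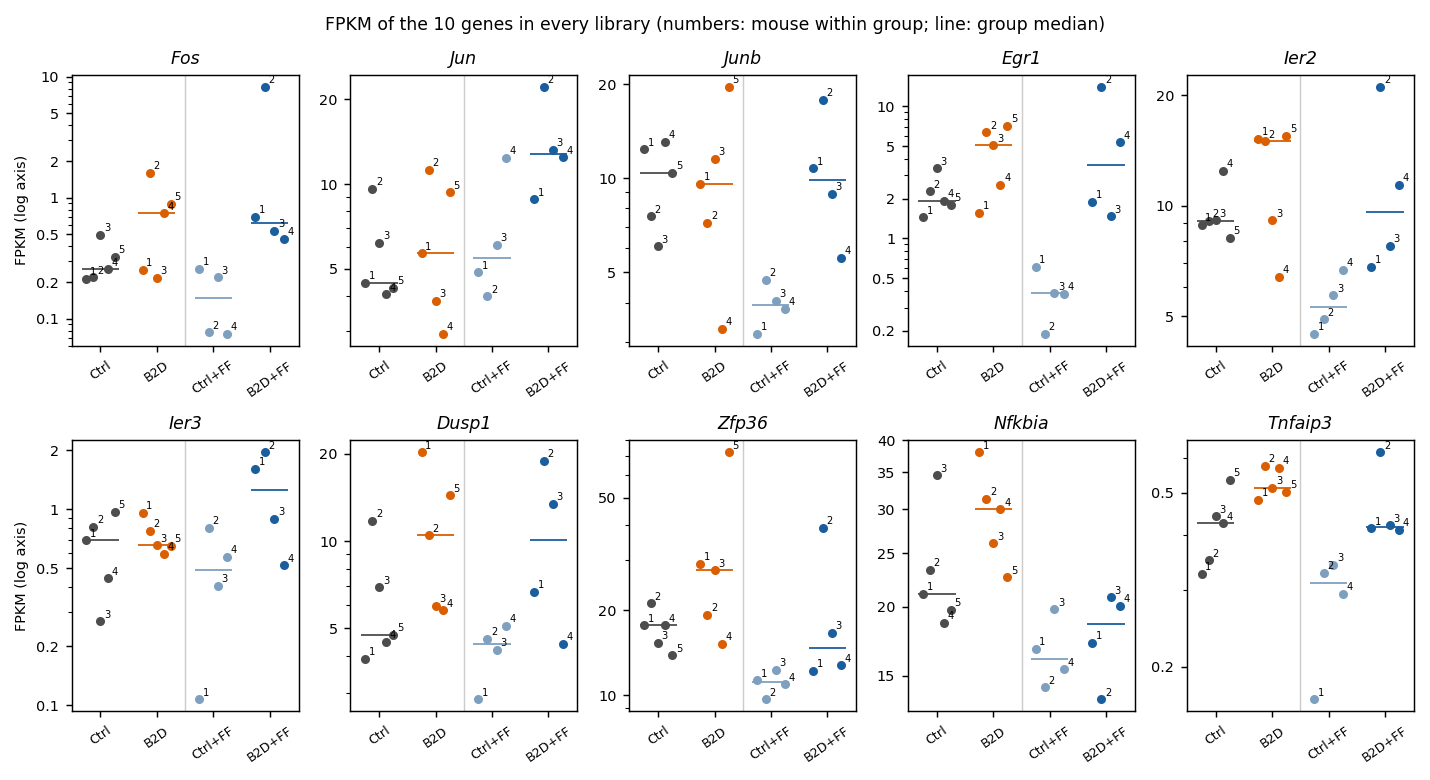
FPKM (log axis) of each gene in every library, by group, with the mouse number beside each point, a line at the group median, and a grey line between the separately normalized experiments. B2D+FF 2 is the highest library of its group in 9 of 10 panels, and B2D+FF lies wholly above Ctrl+FF for Fos, Junb, Egr1, Ier2 and Tnfaip3.

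Without fenofibrate, none of the tested genes passed the adjusted threshold between B2D and Ctrl. B2D was compared with Ctrl by limma on log2(FPKM + 1), with Benjamini-Hochberg adjustment over all 11574 genes whose mean FPKM reached 0.5. At an adjusted p under 0.05, 0 of the 9 genes tested were called, where 2.7% of all genes were. At an unadjusted p under 0.05, 1 of 9 was called by limma, beside 18.4% of all genes, and 3 of 9 by limma voom on the recovered reads, which also called 0 after adjustment. The 2 groups overlapped for all 10 genes, against 4.98% of all genes tested that did not overlap in either direction. The log2 fold changes, all on the log2(FPKM + 1) scale, were above 0 for 8 of 9 genes, with a median of 0.34, beside a median of -0.0013 and 49.8% above 0 over all genes tested.

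Of the transcription factors, Fos, which pairs with Jun proteins to form AP-1, read 0.215, 0.22, 0.496, 0.257 and 0.325 FPKM in Ctrl 1 to Ctrl 5. In B2D 1 to B2D 5 it read 0.254, 1.62, 0.218, 0.745 and 0.895. B2D 2, B2D 4 and B2D 5 lay above every Ctrl library, and B2D 1 and B2D 3 among them. The difference was 0.37 (SE 0.19, adjusted p by limma 0.325), and Fos reached the minimum mean FPKM only through the B2D libraries.

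Egr1, a zinc finger factor, read 1.44, 2.27, 3.39, 1.92 and 1.8 FPKM in the Ctrl libraries and 1.56, 6.36, 5.07, 2.54 and 7.11 in the B2D libraries. B2D 2, B2D 3 and B2D 5 lay above every Ctrl library. With a mean of 4.53 ± 2.4 FPKM (SD, n = 5) against 2.17 ± 0.747, Egr1 was the 1 gene with an unadjusted limma p under 0.05, at a log2 fold change of 0.70 (SE 0.29, adjusted p 0.228).

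Jun, the main partner of Fos, read 4.46, 9.6, 6.18, 4.06 and 4.29 FPKM in Ctrl and 5.67, 11.2, 3.86, 2.94 and 9.35 in B2D. Junb, a relative of Jun, read 12.4, 7.55, 6.06, 13.1 and 10.4 in Ctrl and 9.61, 7.21, 11.5, 3.29 and 19.6 in B2D. The B2D libraries reached both above and below the Ctrl range for these 2 genes. The log2 fold changes were 0.11 (95% confidence interval -0.57 to 0.78) for Jun and -0.08 (-0.84 to 0.68) for Junb. Reads of Junb overlap in position with Prdx2, a gene of the opposite strand that read up to 63.2 FPKM, and no source used here says whether counting used strand.

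Ier2, a short nuclear immediate-early protein, read 8.86, 9.11, 9.13, 12.4 and 8.17 FPKM in Ctrl and 15.2, 15, 9.13, 6.4 and 15.5 in B2D. Of the B2D libraries, 3 lay above every Ctrl library and 1 below. Ier3, which acts in cell survival and is a known NF-κB target, read 0.696, 0.814, 0.269, 0.445 and 0.972 in Ctrl and 0.96, 0.777, 0.655, 0.592 and 0.651 in B2D. All B2D values of Ier3 lay within the Ctrl range, on 6 to 23 reads per library.

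Dusp1, the phosphatase that inactivates p38 and JNK, read 3.92, 11.8, 6.92, 4.48 and 4.75 FPKM in Ctrl and 20.3, 10.5, 5.98, 5.77 and 14.4 in B2D. Zfp36 (tristetraprolin), which binds AU-rich mRNAs and speeds their decay, read 17.7, 21.1, 15.3, 17.7 and 13.8 in Ctrl and 29.2, 19.2, 27.6, 15.2 and 72.4 in B2D. B2D 1 and B2D 5 were above every Ctrl library for both feedback genes, and B2D 5 was 2.48 times the next B2D library for Zfp36. The log2 fold changes were 0.70 (SE 0.34, adjusted p by limma 0.299) for Dusp1 and 0.70 (SE 0.32, adjusted p 0.278) for Zfp36. Without B2D 5, that of Zfp36 was 0.36.

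Of the NF-κB inhibitors, Nfkbia read 21.1, 23.3, 34.6, 18.7 and 19.8 FPKM in Ctrl and 38.1, 31.4, 26, 30 and 22.6 in B2D. Ctrl 3 lay above 4 of the 5 B2D libraries, and the difference was 0.34 (SE 0.18, adjusted p by limma 0.333). Tnfaip3, which edits ubiquitin chains on NF-κB signalling proteins, read 0.327, 0.35, 0.442, 0.425 and 0.536 in Ctrl and 0.481, 0.576, 0.512, 0.57 and 0.502 in B2D. Tnfaip3 was under the minimum mean FPKM and was compared alone on log2(FPKM + 1), with a difference of 0.11 (exact permutation test, two-sided, unadjusted p = 0.0317, where the smallest p possible is 0.00794). In the limma fit with no filter its adjusted p was 0.551.

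With fenofibrate, 1 of the 9 tested genes passed the adjusted threshold between B2D+FF and Ctrl+FF. That gene was Junb, at 10.8 ± 5.17 FPKM (SD, n = 4) against 3.94 ± 0.639. Of all 11878 genes tested, 4.45% were called. At an unadjusted p under 0.05, limma called 6 of 9 genes, beside 21.2% of all genes. The median log2 fold change of the 9 was 0.99, beside 0.013 over all genes, and all 9 were above 0, as were 52.8% of all genes. Of the 9 tested, 4 did not overlap between the groups, all higher in B2D+FF, where 7.82% of all genes did so in that direction. Egr1, Fos and Ier3 had mean FPKM under the minimum in Ctrl+FF and were tested only through their B2D+FF levels, so these counts are not support for a shared rise.

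**Figure D2:**
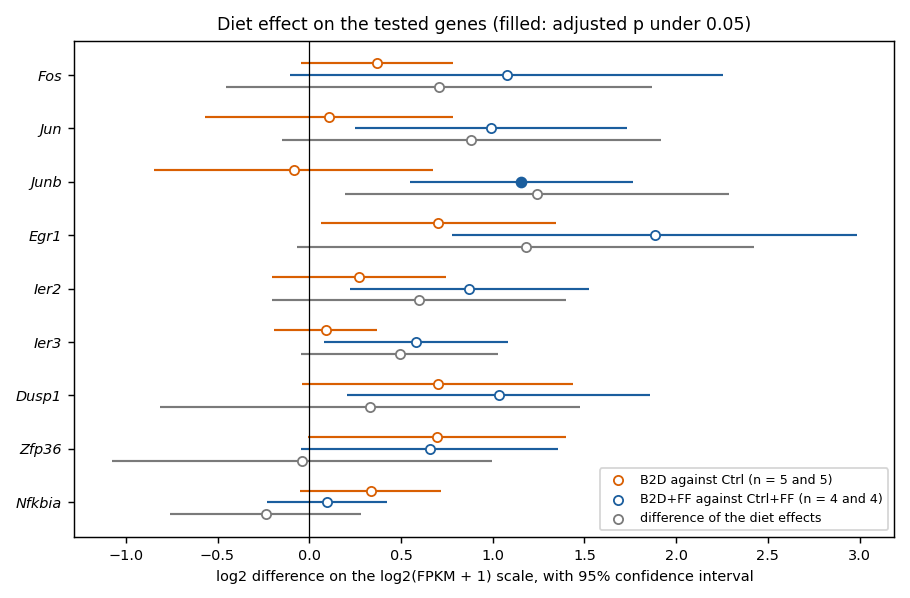
Difference between the diets (x axis, log2(FPKM + 1) scale) for the 9 tested genes, without fenofibrate, with fenofibrate, and the second minus the first, with bars for the 95% confidence interval and filled points at an adjusted limma p under 0.05. Junb with fenofibrate is the only filled point, at 1.16.

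Junb read 3.18, 4.73, 4.05 and 3.82 FPKM in Ctrl+FF 1 to Ctrl+FF 4. In B2D+FF 1 to B2D+FF 4 it read 10.7, 17.8, 8.93 and 5.56. Every B2D+FF library lay above every Ctrl+FF library. The log2 fold change was 1.16 (SE 0.27, adjusted p by limma 0.0461). Of 16 alternatives to this fit, 11 lost the call at adjusted p between 0.0505 and 0.127, among them each Ctrl+FF library left out in turn and B2D+FF 1 or B2D+FF 3 left out, while the call held without B2D+FF 2, at 0.90 with an adjusted p of 0.0431.

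Egr1 read 0.612, 0.19, 0.385 and 0.382 FPKM in Ctrl+FF and 1.89, 14, 1.47 and 5.35 in B2D+FF. All B2D+FF libraries lay above the Ctrl+FF range, and B2D+FF 2 was 2.62 times the next. Egr1 had the largest log2 fold change of the 9, 1.88 (SE 0.49, adjusted p by limma 0.0627). It passed the threshold in 5 of 15 alternatives, including without B2D+FF 2, at 1.36 with an adjusted p of 0.0419.

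Fos read 0.259, 0.0775, 0.22 and 0.0753 FPKM in Ctrl+FF, or 3 to 10 reads per library. In B2D+FF it read 0.699, 8.26, 0.534 and 0.456, or 22 to 395 reads. The groups did not overlap, and B2D+FF 2 was 11.8 times the next library. The log2 fold change was 1.08 (SE 0.52, adjusted p by limma 0.277), and the ratio of the means, 15.7, stood beside a ratio of the medians of 4.14. Without B2D+FF 2, Fos fell under the minimum mean FPKM and was not tested.

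Jun read 4.85, 4, 6.1 and 12.4 FPKM in Ctrl+FF and 8.84, 22.1, 13.2 and 12.4 in B2D+FF. Ctrl+FF 4 lay within the B2D+FF range and well above the other Ctrl+FF libraries. The log2 fold change was 0.99 (SE 0.33, adjusted p by limma 0.123), and Jun passed the threshold without Ctrl+FF 4 (1.29, adjusted p 0.0395). Ier2 read 4.48, 4.91, 5.71 and 6.71 in Ctrl+FF and 6.83, 21.1, 7.78 and 11.4 in B2D+FF, without overlap. Its log2 fold change was 0.87 (SE 0.29, adjusted p 0.123).

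Dusp1 read 2.85, 4.6, 4.22 and 5.1 FPKM in Ctrl+FF and 6.68, 18.9, 13.5 and 4.41 in B2D+FF. Zfp36 read 11.3, 9.68, 12.3 and 10.9 in Ctrl+FF and 12.2, 39.1, 16.6 and 12.8 in B2D+FF. For both, 3 of the 4 B2D+FF libraries lay above every Ctrl+FF library, by little for Zfp36 apart from B2D+FF 2. The log2 fold change of Dusp1 was 1.03 (SE 0.37, adjusted p by limma 0.146). That of Zfp36 was 0.66 (SE 0.31, adjusted p 0.265) and 0.29 without B2D+FF 2. Ier3 read 0.108, 0.806, 0.407 and 0.574 in Ctrl+FF and 1.61, 1.96, 0.897 and 0.518 in B2D+FF, with overlap and on 2 to 45 reads per library.

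Of the NF-κB inhibitors, Nfkbia read 16.8, 14.3, 19.8 and 15.4 FPKM in Ctrl+FF and 17.2, 13.6, 20.8 and 20.1 in B2D+FF, and B2D+FF 2 was the lowest of all 8. Its log2 fold change was 0.10 (95% confidence interval -0.23 to 0.43, adjusted p by limma 0.744). Tnfaip3 read 0.169, 0.328, 0.342 and 0.294 in Ctrl+FF and 0.414, 0.619, 0.421 and 0.412 in B2D+FF. Its groups did not overlap, with a difference of 0.19 on log2(FPKM + 1) (exact permutation test, two-sided, unadjusted p = 0.0286, the smallest p possible with 4 mice a group). In the limma fit with no filter its adjusted p was 0.272.

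The diet effect with fenofibrate minus that without was tested in 1 fit of all 18 libraries. By limma, 0 of 9 genes were called, where 0.228% of 11862 genes were. At an unadjusted p under 0.05, 1 of 9 was called by limma, beside 11.9% of all genes, and 2 of 9 by limma voom on the recovered reads, with 0 after adjustment. The largest differences were 1.24 for Junb (95% confidence interval 0.19 to 2.29, adjusted p 0.331) and 1.18 for Egr1 (-0.07 to 2.43, adjusted p 0.435). For Dusp1 the interval ran from -0.81 to 1.47 and for Zfp36 from -1.08 to 0.99, so the difference was not closely bounded for either gene.

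For most of these genes, mice of a group differed more than for the typical gene. The SD of log2(FPKM + 1) between B2D+FF mice lay at or above the 95th percentile of all genes tested for 7 of the 9 genes, with Egr1 at the 99.7th. Fos, at the 99.8th, is 1 of the 7 but passed the minimum mean FPKM only through B2D+FF 2, so its wide spread there follows from the filter. In B2D it did so for 5 of 9, in Ctrl for Dusp1 (97.2) and in Ctrl+FF for Jun (98.3). The median percentile of the 9 genes was 87 in Ctrl, 97 in B2D, 72.9 in Ctrl+FF and 97.7 in B2D+FF. Nfkbia stayed between 68.4 and 88.9 in all 4 groups. Genes were not matched for level in this ranking, and the added 1 FPKM narrows the SD of low genes.

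**Figure D3:**
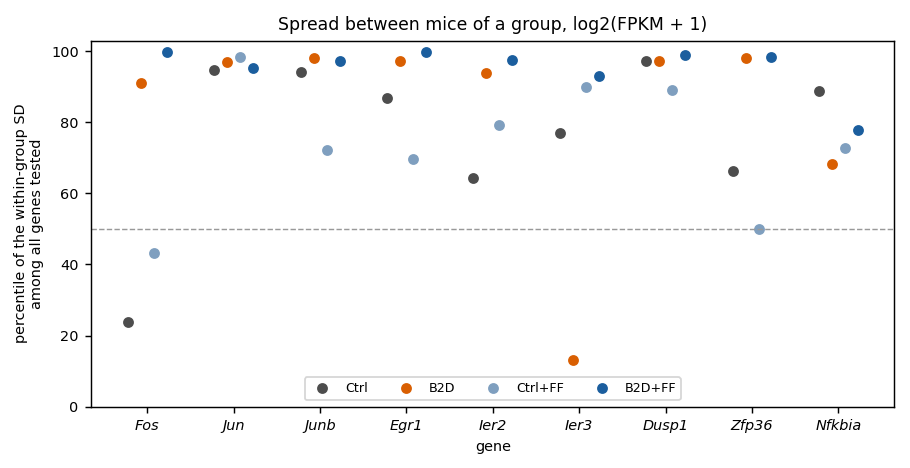
Percentile of each gene's SD between mice (y axis) among all genes tested in that experiment, by group, with a dashed line at the 50th percentile. Most points lie above the line, and those of B2D+FF lie between 78 and 99.8.

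The high values fell in certain livers. B2D+FF 2 was the highest of its group for 9 of the 10 genes, all but Nfkbia, for which it was lowest; it was highest for 28% of all genes tested. It was at least 2 times the next library for Egr1 and Zfp36, 2 of 8 tested genes, beside 0.985% of all genes. Fos, for which it was also over 2 times the next, was tested only because of that library and is left out of this count. In B2D the high values were shared out: B2D 5 was highest for Junb, Egr1, Ier2 and Zfp36, B2D 2 for Fos, Jun and Tnfaip3, and B2D 1 for Ier3, Dusp1 and Nfkbia. B2D 4 was lowest of its group for 6 genes, namely Jun, Junb, Ier2, Ier3, Dusp1 and Zfp36. In Ctrl and Ctrl+FF no library was highest for more than 3 genes.

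**Figure D4:**
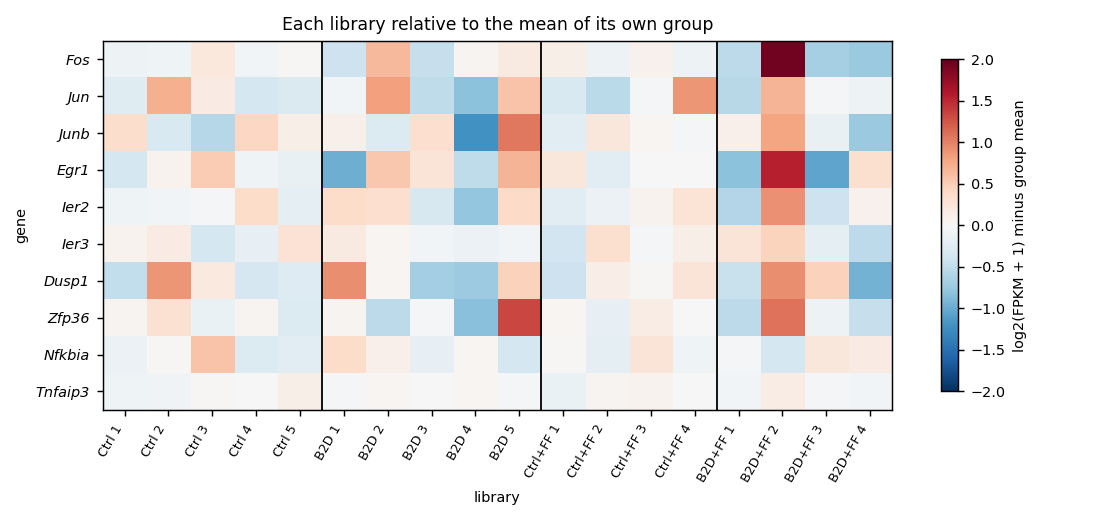
log2(FPKM + 1) of each gene (rows) in each library (columns) minus the mean of that library's group, red above and blue below, with black lines between groups. B2D+FF 2 is red for 9 genes and blue for Nfkbia, and B2D 4 is blue for most.

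A few other rapid-response genes stood high in B2D+FF 2, and they are named here because of their values. That library was at least 2 times the next of its group for 3 of 13 tested other immediate-early transcription factors, 1 of 17 other immediate-early genes, 2 of 11 MAP kinase feedback genes and 1 of 13 NF-κB target genes. Atf3, a stress-induced factor, read 1.25, 13.4, 1.03 and 4.67 FPKM in B2D+FF. Fosb, a relative of Fos, read 0.16, 5.56, 0.031 and 0.696, and Plk3, an immediate-early kinase, read 41.1, 128.9, 52.4 and 40.7. Dusp6, the phosphatase that acts on ERK, read 7.98, 33.3, 9.03 and 9.3. B2D+FF 2 was thus at least 2 times any other library of its group for each of these 4 genes, as it was for Nr4a1, Spry4 and Cxcl1. Fosb, Nr4a1 and Spry4 reached the minimum mean FPKM only through B2D+FF 2. Their places in the counts above follow from the filter, so those counts are not support for a shared rise. Of 9 tested heat shock genes, which respond to protein damage, none was highest in that library.

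Markers of other cells were read beside it. The summed FPKM of 8 neutrophil markers was 7.19, 14, 5.61 and 3.41 in B2D+FF 1 to B2D+FF 4, against 2.6 to 4.41 in Ctrl+FF, with S100a8 at 1.52, 4.18, 0.836 and 0.562. Of the 4 markers tested, 3 were highest in B2D+FF 2, and 1, Retnlg, rose in B2D+FF against Ctrl+FF (0.97, adjusted p by limma 0.028). Retnlg read 0.194 to 0.4975 FPKM in Ctrl+FF, under the minimum mean, and was tested only through its B2D+FF levels. The sum of 12 Kupffer cell and macrophage markers was 244.4, 93.7, 142.7 and 153.4, so it was lowest in B2D+FF 2. That library was also the lowest of its group in the sums of lymphocyte (0.469), endothelial (31.2), stellate cell (16.5), bile duct cell (4.76), erythroid (284.4) and hepatocyte (28020) markers. The hepatocyte sum does not stand for each marker, since 2 of the 7 were highest in B2D+FF 2. Albumin took 3.398% of the reads there, against 2.698, 2.88 and 2.579% in B2D+FF 1, B2D+FF 3 and B2D+FF 4. Of the 8 neutrophil markers, 3 or 4 were listed at 0 in each B2D+FF library, as in Ctrl+FF. Limma called 0 of 12 Kupffer cell markers with fenofibrate, with 2 at an unadjusted p under 0.05, both lower, and 2 of 12 without it, C1qa (-0.50, adjusted p 0.0275) and Clec4f (-0.47, adjusted p 0.0412), both lower in B2D. Without fenofibrate, the neutrophil sum was 2.03 to 6.61 in B2D and 0.867 to 2.46 in Ctrl. Limma called 0 of the 3 neutrophil markers tested there, all 3 with log2 fold changes above 0 and 2 at an unadjusted p under 0.05, among them S100a9 (0.77, adjusted p 0.0621). S100a8 was under the minimum mean FPKM in Ctrl and was tested there only through its B2D levels. In B2D, B2D 5 had the highest sum of Kupffer cell markers, 184.6 against 131.7 to 163.7 in the other mice. The part of these cells, of handling and of time to dissection in the levels of the 10 genes was not tested.

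Some of the genes varied together across mice, as a description over 18 libraries with each group centred on its mean. Pearson's r of a gene with the mean of the other 9 was highest for Ier2 (0.789), Fos (0.712) and Zfp36 (0.67), and Nfkbia alone was below 0 (-0.413). Leaving out the 2 libraries farthest from the median, B2D+FF 2 and B2D 4, gave 0.572 for Fos, 0.571 for Ier2 and 0.387 for Zfp36. It gave 0.177 for Egr1, 0.116 for Junb, 0.0764 for Ier3 and 0.23 for Tnfaip3, from 0.558, 0.465, 0.364 and 0.394 with all libraries. Among 4421 other genes averaging 5 FPKM or more in both experiments, those most like the mean of the 10 included Trib1 (r = 0.768), Lipg (0.766), Atg13 (0.756) and Tob1 (0.754), which fell to between 0.534 and 0.639 without those 2 libraries. The group means were taken with those 2 libraries in and were not taken again without them. The values of r without them are therefore not free of their influence. Libraries of an experiment share its normalization.

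Related genes followed in part. Of 13 tested other immediate-early transcription factors, 4 rose in B2D+FF against Ctrl+FF: Maff, Klf6, Klf10 and Jund. Maff, a small MAF protein, went from 1.47 ± 0.147 to 4.53 ± 0.579 FPKM (SD, n = 4), a log2 fold change of 1.16 (SE 0.092, adjusted p by limma 9.18e-04). Klf6, a Krüppel-like factor, went from 1.63 ± 0.167 to 5.07 ± 2.01 FPKM (1.16, adjusted p 0.0117), Klf10 from 5.08 ± 1.25 to 10.1 ± 1.31 (0.88, adjusted p 0.017) and Jund from 12.5 ± 2.84 to 21.6 ± 1.77 (0.76, adjusted p 0.0236). None of these 4 overlapped between the groups, where 7.82% of all genes were higher without overlap. They were named for passing this same test, so the lack of overlap is not further support. The median log2 fold change of the 13 was 0.57. Fosb (0.00236), Nr4a1 (0.11), Klf4 (0.295) and Atf3 (0.307) had mean FPKM under the minimum in Ctrl+FF. They were tested only through their B2D+FF levels, so this median is not support for a shared rise. In B2D against Ctrl, 0 of 12 were called by limma, with 2 higher and 2 lower at an unadjusted p under 0.05, and the median was 0.30. Klf4, with a mean of 0.468 FPKM in Ctrl, was tested there only through its B2D level. Maff was also called in the difference of the diet effects (1.63, SE 0.26, adjusted p by limma 0.00687), the only gene called there among these lists. Its log2 fold change without fenofibrate was -0.47 (adjusted p 0.249), so that value enters the 1.63.

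Of 17 tested immediate-early genes that are not transcription factors, 2 rose with fenofibrate, where 4.45% of all genes were called in either direction. Gadd45b, which acts in stress-induced growth arrest, went from 11.7 ± 2.51 to 26.1 ± 5.49 FPKM (1.10, adjusted p by limma 0.012). Btg2, an antiproliferative gene, went from 3.56 ± 0.672 to 11 ± 5.26 (1.32, adjusted p 0.0203). Of 11 tested MAP kinase feedback genes 1 rose, Dusp5, a phosphatase for ERK, from 0.432 ± 0.0855 to 1.38 ± 0.588 (0.70, adjusted p 0.0457). Dusp5, Spry4 (0.317) and Dusp8 (0.454) had mean FPKM under the minimum in Ctrl+FF. They were tested only through their B2D+FF levels, so this call is not support for a shared rise. Without fenofibrate limma called 0 of 17 and 0 of 10, with 3 and 4 at an unadjusted p under 0.05. Of those 4, Dusp5 (0.312) and Dusp4 (0.489) had mean FPKM under the minimum in Ctrl and were tested only through B2D.

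Upstream of the 10 genes little was called, where 2.7% of all genes were called without and 4.45% with fenofibrate. Of 28 tested genes of the serum response and MAP kinase cascade, 1 fell in B2D, Map2k3, a kinase that activates p38, from 21.3 ± 3.1 to 12.2 ± 1.76 FPKM (-0.76, adjusted p by limma 0.0109). At an unadjusted p under 0.05, 5 were higher and 5 lower in B2D, beside 18.4% of all genes in either direction. In this cascade 0 were called with fenofibrate, with 3 at an unadjusted p under 0.05, beside 21.2% of all genes. Of 21 NF-κB receptors, kinases and subunits, 1 rose in B2D+FF, the interleukin-1 receptor Il1r1, from 7.61 ± 1.61 to 13 ± 1.67 (0.71, adjusted p 0.0312), and 0 were called without fenofibrate, with 3 at an unadjusted p under 0.05. Of 12 other NF-κB inhibitors tested with fenofibrate, 1 was called, Traf3, which fell (-0.46, adjusted p 0.0418). Most of that list lay the other way, with 10 of the 12 above 0 and a median of 0.116. At an unadjusted p under 0.05, 4 of them were higher and 1 lower. Among NF-κB target genes, Lcn2 (lipocalin 2) rose in B2D (0.83, adjusted p 0.0477), 1 of 15 tested, and Saa3, an acute-phase gene, fell in B2D+FF (-0.79, adjusted p 0.0109), 1 of 13 tested. Of the 15, only 5 lay above 0, with a median of -0.103, and of the 13, 7 did, with a median of 0.0264. Of 10 genes of AU-rich mRNA decay, limma called 0 in either experiment, with 1 and 0 at an unadjusted p under 0.05.

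Genes known to respond to glucocorticoids, the hormones of fasting and restraint that also raise Dusp1, Zfp36 and Nfkbia, rose in part in both experiments. Limma called 3 of 13 in B2D, namely Mt1 (a metallothionein), Cdkn1a (p21) and Lcn2, and 4 of 13 in B2D+FF, namely Zbtb16, Mt1, Tat (tyrosine aminotransferase) and Fkbp5. Mt1 went from 86.5 ± 43.3 to 310.1 ± 95.1 FPKM without fenofibrate (SD, n = 5; log2 fold change 1.93, adjusted p 0.0148) and from 189 ± 66.1 to 557.8 ± 185 with it (n = 4; 1.57, adjusted p 0.0179). Mt1, Cdkn1a and Lcn2 are known to answer to other signals too, and Lcn2 stands in both lists. The median log2 fold change of the 13 was 0.71 without and 0.56 with fenofibrate. Of the 13, 13 and 12 lay above 0, beside 49.8% and 52.8% of all genes. At an unadjusted limma p under 0.05, 7 and 5 were higher, beside 18.4% and 21.2% of all genes in either direction. After adjustment, 2.7% and 4.45% of all genes were called. Of 9 heat shock genes tested in each experiment 0 were called by limma, with 3 at an unadjusted p under 0.05 without and 0 with fenofibrate.

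**Figure D5:**
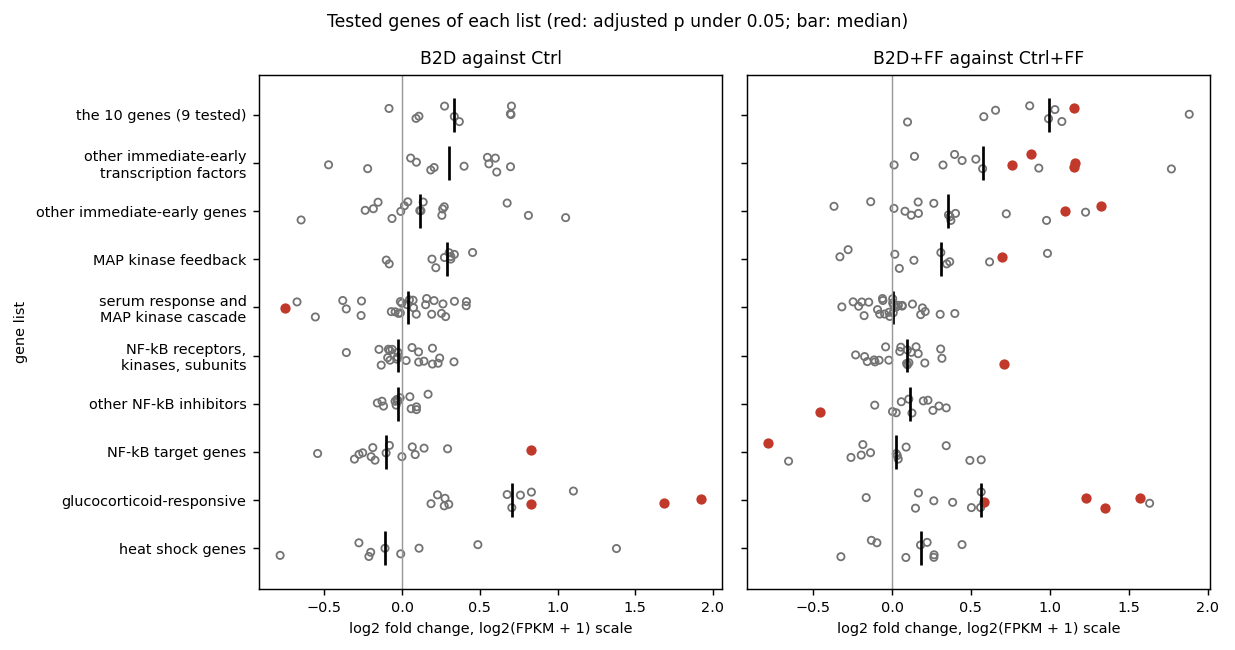
log2 fold change (x axis) of every tested gene of each list (rows) in B2D against Ctrl and in B2D+FF against Ctrl+FF, with red points at an adjusted limma p under 0.05 and a bar at the list's median. The bar of the 10 genes (9 tested) moves from 0.34 to 0.99, and those of the NF-κB lists stay between -0.103 and 0.116.

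Side by side, and with no test because the experiments differ in more than the drug, the mean control-diet levels were lower with fenofibrate for all of the 10 genes but Jun. Egr1 had a mean of 2.17 FPKM in Ctrl and 0.392 in Ctrl+FF, and Junb 9.89 and 3.94. The means in B2D and B2D+FF were 4.53 and 5.68 for Egr1 and 10.2 and 10.8 for Junb. Jun stood at 5.72 in Ctrl and 6.83 in Ctrl+FF, then 6.61 in B2D and 14.2 in B2D+FF.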

How the data were processed

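Total liver RNA of 18 mice was made into mRNA libraries and sequenced in paired ends. The authors aligned the reads with STAR to mm10, counted them per gene with featureCounts, used DESeq2 for their own tests, and deposited 1 table of FPKM values per experiment (their methods call the unit RPKM). Multiplied by gene length, 100% of the deposited FPKM came out as a whole number of reads (tolerance 0.05), so reads were recovered. Libraries were matched to mice by the labels, and no 2 libraries were alike (at least 18051 genes differed), so each mouse is 1 replicate.

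Differences in log2(FPKM + 1) were tested by limma (version 3.58.1, R 4.3.3, variance trend, two-sided) for genes whose mean FPKM reached 0.5, each experiment alone, and the difference of the diet effects in 1 fit of 18 libraries. P-values were adjusted by Benjamini-Hochberg over all genes tested, with a threshold of 0.05. Fold changes on this scale understate those of low genes. The test was tried on simulated data. The 10 genes and the gene lists were chosen with earlier results of these data known. Named genes were the 10, up to 5 genes per list with the smallest adjusted p past the threshold, and the 5 genes most like the mean of the 10, of which 1 is not reported here. The settings varied were the pseudocount (0.1), the filter (none, or 5 FPKM), upper quartile rescaling, quantile normalization, limma voom on recovered reads, array weights, all 4 groups in 1 fit and each library left out. Reads were not analysed here.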

Additional observations from a re-analysis of the deposited data

Results flagged for a closer look

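In 40 sets of values (10 genes in 4 groups), the library at the end of the range lay apart from the others by Dixon's criterion in 6, where chance alone gives about 5% of groups and 6.07% of the sets of all tested genes lay apart in the same way. In B2D+FF, mouse 2 lay apart for Fos at 8.26 FPKM (gap 0.969 of the range), Zfp36 at 39.1 (0.835) and Tnfaip3 at 0.619 (0.955). In B2D, mouse 5 lay apart for Zfp36 at 72.4 FPKM (0.756). In Ctrl, mouse 4 lay apart for Ier2 at 12.4 FPKM (0.776) and mouse 3 for Nfkbia at 34.6 (0.711). All 6 were high values. Of the 6, 3 came from 1 mouse, so the sets are not independent.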

How the results depend on the processing

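Of the members' fold changes under the alternatives, 489 kept direction and side of the threshold, 7 newly passed, 11 no longer passed and 10 reversed. The 11 were all Junb with fenofibrate, at 1.16 without a filter, 1.10 by upper quartile and 1.14 by quantile normalization, and 0.94 with array weights. The reversals were of genes near 0. With each library left out in turn, Jun without fenofibrate ran from -0.10 to 0.31, Junb without fenofibrate from -0.35 to 0.22, and Zfp36 in the difference of the diet effects from -0.40 to 0.29, and all 10 reversals were among these.

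In B2D+FF against Ctrl+FF the number of the 10 genes past the threshold, 1, became 2 with a pseudocount of 0.1 and with array weights, 0 with no filter, upper quartile or quantile normalization, and 0 to 2 with a library left out. All genes called numbered 313 in B2D against Ctrl (67 with no filter, 731 in 1 fit of 4 groups, 98 to 332 with a library left out), 529 with fenofibrate (272 with no filter, 885 with array weights, 175 to 596) and 27 for the difference of the diet effects (16 with a pseudocount of 0.1, 12 by voom, 136 with array weights, 17 to 66). The cause was not tested. By recovered reads scaled to library size, 38 of 40 sets had the same highest library as by FPKM. No paired analysis was possible because the labels give the groups no shared replicate numbers. Fos, Ier3 and Tnfaip3 rest on few reads, which limits their folds.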
